A study of Mus musculus with 6 samples.

Results

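Huntingtin, its partners and the REST-BDNF axis were followed as 9 genes, Htt, Hap1, Hip1, Rest, Bdnf, Ppargc1a, Zdhhc17, Sp1 and Pacsin1. They were chosen by name, and all 9 were found among the 19613 genes of the table. Their RNA was read with Affymetrix exon arrays of the mouse in 6 samples of embryoid bodies, aggregates grown from HBG3 HB9 embryonic stem cells (HGB3 in the methods) whose motor neurons fluoresce through a reporter of Hb9. Per the methods of the study, the cells were turned into spinal motor neurons with retinoic acid and a hedgehog agonist, and only some of the cells in an embryoid body became motor neurons. All 6 samples form 1 group, which received blood fluid from the Huntington's disease mouse strain B6CBA-Tg(HDexon1)62Gpb/3J. It is called plasma where the samples are labelled and serum in the series title, the word used below. The donors were male carriers of 10 weeks of age, before the onset of symptoms, and the methods describe, for the assay, an exposure to 5% serum for 24 h. The human huntingtin exon 1 fragment is a transgene of these donors. The stem cells that were measured are not described as carrying it, so the values below are those of the endogenous mouse genes.

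No control arrays were analysed here. The values therefore describe levels and their spread, not a response to the serum, and no comparison between groups was possible. The arrays are called replicates 2, 4, 5, 6, 7 and 8 after their titles. The study speaks of separate serum samples and of assays run in groups, each group with its own batch of neurons. The labels do not tie an array to a donor or a batch, and the SDs can include differences between sera and batches. In bulk samples of mixed cells, fewer cells of a type cannot be told apart from less RNA per cell.

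Huntingtin is a large scaffold protein that moves vesicles along microtubules and takes part in endocytosis and transcription. In Huntington's disease its glutamine repeat is expanded. HAP1 links huntingtin to motor proteins, HIP1 links it to clathrin and actin, ZDHHC17 attaches palmitate to it and PACSIN1 binds dynamin at synapses. REST is a repressor that silences neuronal genes holding an RE1 element, and wild-type huntingtin is known for keeping REST in the cytoplasm of neurons, which favours transcription of Bdnf, a neurotrophin gene. SP1 is an activator that binds GC boxes, and PGC-1alpha, encoded by Ppargc1a, is a coactivator of mitochondrial genes. Both are known as targets of mutant huntingtin.

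The promoters of Htt, Sp1 and Bdnf are shown because GC boxes, the sites that SP1 binds, are the link between Sp1 and the other genes that sequence alone can show. The sequences are from RefSeq, build GRCm38.p6, and hold the 250 bases before a transcript start, 5′ to 3′ on the plus strand. Capitals mark the letters GGGCGG or the reverse complement CCGCCC, with overlapping matches both counted. The Htt sequence lies at chr5:34761490-34761739, the Sp1 sequence at chr15:102406066-102406315 and that of Bdnf, 1 of 7 start sites in the table, at chr2:109676782-109677031.
Htt: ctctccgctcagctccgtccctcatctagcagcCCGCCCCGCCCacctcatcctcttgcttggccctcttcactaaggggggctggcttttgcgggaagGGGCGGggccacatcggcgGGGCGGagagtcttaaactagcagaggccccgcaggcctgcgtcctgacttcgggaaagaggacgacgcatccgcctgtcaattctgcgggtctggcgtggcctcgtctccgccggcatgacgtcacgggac
Sp1: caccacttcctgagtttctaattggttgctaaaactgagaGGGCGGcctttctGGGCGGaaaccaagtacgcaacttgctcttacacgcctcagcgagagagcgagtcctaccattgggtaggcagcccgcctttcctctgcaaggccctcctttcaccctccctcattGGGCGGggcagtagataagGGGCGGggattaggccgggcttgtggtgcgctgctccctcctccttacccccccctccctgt
Bdnf: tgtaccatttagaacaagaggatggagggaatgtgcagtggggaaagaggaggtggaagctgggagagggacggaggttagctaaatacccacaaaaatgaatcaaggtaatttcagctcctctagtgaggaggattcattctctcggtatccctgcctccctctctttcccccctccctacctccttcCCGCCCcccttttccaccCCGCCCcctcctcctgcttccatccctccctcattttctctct
Htt held 4 GC boxes, which begin 217, 212, 151 and 132 bases before the start. Sp1 held 4 and this start of Bdnf, the one with the most of its 7, held 2. With 50 bases after the start added, 7 of 17 windows of the 8 matched genes held a GC box, against 35.7% of all 32851 windows in the table. These windows belonged to 5 of the 8 genes, Htt, Hip1, Bdnf, Sp1 and Pacsin1. Of the 7 windows of Bdnf only 2 held a GC box. Over all windows 10.7% held 3 or more. Hap1, Ppargc1a and Zdhhc17 held none in their windows. Rest was not matched. A match is a string of letters, and no binding was measured.

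The first question was which of these genes were above background in the indicator cells. Background was set at a log2 intensity of 7.47, the 95th percentile of the means of 1032 olfactory receptor genes. Of the 9 genes, 8 had a mean above it, against 65.2% of all genes, and the same 8 were above it on every array, against 61.6% of all genes. Pacsin1 was below it. Probes differ in affinity between genes, so the levels of different genes were not ordered, and each level is read against background and against its own spread. Over all genes, the arrays had correlations of 0.991 to 0.997 between pairs and median intensities of 296 to 311, and the lower quartile of intensity was 109 in replicate 8 and 121 to 129 in the other arrays.

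**Figure D1:**
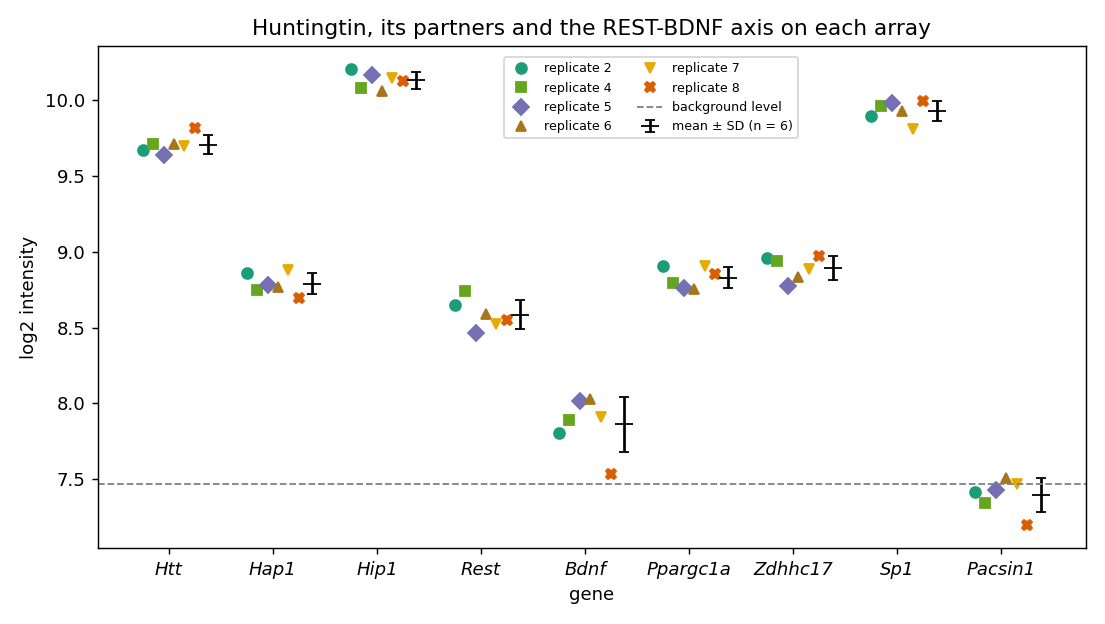
Log2 intensity (y axis) of each of the 9 genes (x axis) on the 6 arrays, 1 symbol per array, with the mean ± SD (n = 6) in black to the right and the background level of 7.47 as a dashed line. Bdnf and Pacsin1 lie closest to background and are lowest in replicate 8, at 7.54 and 7.20.

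Htt had log2 intensities of 9.67, 9.71, 9.64, 9.71, 9.70 and 9.82 in replicates 2, 4, 5, 6, 7 and 8. Replicate 8 was the highest and the other arrays lay close together, with 1.13-fold between the extremes. The mean was 9.71 ± 0.060 (SD, n = 6), 2.24 log2 units above background. Without replicate 8 the SD was 0.030. In the bin of 640 genes of like level that holds Htt, replicate 8 was the highest array for 38.8% of genes. The part of this feature of the array in the value of Htt was not tested.

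Among the partners, Hap1 had log2 intensities of 8.86, 8.75, 8.78, 8.76, 8.88 and 8.70 in replicates 2, 4, 5, 6, 7 and 8, with a mean of 8.79 ± 0.070 (SD, n = 6). Replicates 2 and 7 were the highest and replicate 8 the lowest, the opposite place to that of this array for Htt. Hip1 had 10.21, 10.08, 10.16, 10.06, 10.14 and 10.13, with a mean of 10.13 ± 0.055 (SD, n = 6). This was the smallest SD of the 9 genes, and the arrays spanned 1.11-fold.

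Zdhhc17, the palmitoyltransferase of huntingtin, had log2 intensities of 8.96, 8.94, 8.77, 8.83, 8.88 and 8.97 in replicates 2, 4, 5, 6, 7 and 8 and a mean of 8.89 ± 0.077 (SD, n = 6). Replicates 2, 4 and 8 lay above replicates 5, 6 and 7. Pacsin1, which is known from neurons that have formed synapses, had 7.42, 7.34, 7.43, 7.51, 7.47 and 7.20, with a mean of 7.39 ± 0.11 (SD, n = 6). Only replicate 6 passed the background level. Replicate 8 was again the lowest, and without it the SD was 0.062. Of the 707 genes whose mean lay within 0.1 of that of Pacsin1, replicate 8 was the lowest array for 65.6%. After quantile normalization between the arrays the SD of Pacsin1 was 0.039.

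Of the regulators of transcription, Rest had log2 intensities of 8.65, 8.74, 8.46, 8.59, 8.52 and 8.55 in replicates 2, 4, 5, 6, 7 and 8. Its mean of 8.59 ± 0.097 (SD, n = 6) was 1.12 log2 units above background, in cultures in which neurons and other cells were measured together. Replicate 4 was the highest and replicate 5 the lowest, 1.21-fold apart. Sp1 had 9.90, 9.96, 9.98, 9.93, 9.81 and 9.99, with a mean of 9.93 ± 0.068 (SD, n = 6). Replicate 7 stood below the others, and without it the SD was 0.040. Ppargc1a had 8.90, 8.80, 8.76, 8.75, 8.91 and 8.86, with a mean of 8.83 ± 0.068 (SD, n = 6) and the arrays within 1.11-fold.

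Bdnf, the ligand at the end of the axis, had log2 intensities of 7.80, 7.89, 8.01, 8.03, 7.91 and 7.54 in replicates 2, 4, 5, 6, 7 and 8. Replicates 5 and 6 were the highest and replicate 8 stood well below the other arrays, with 1.40-fold between the extremes. The mean was 7.86 ± 0.18 (SD, n = 6), 0.39 log2 units above background. This was the widest SD of the 9 genes, and without replicate 8 it was 0.092. In the bin of 639 genes of like level that holds Bdnf, replicate 8 was the lowest array for 53.8% of genes. After quantile normalization Bdnf was still lowest in replicate 8, at 7.66, with an SD of 0.13. Against a stricter background of 8.33, the 99th percentile of the same olfactory receptor genes, Bdnf was not above background. The values average all exons of the gene, so the transcripts from its several promoters were not separated.

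**Figure D2:**
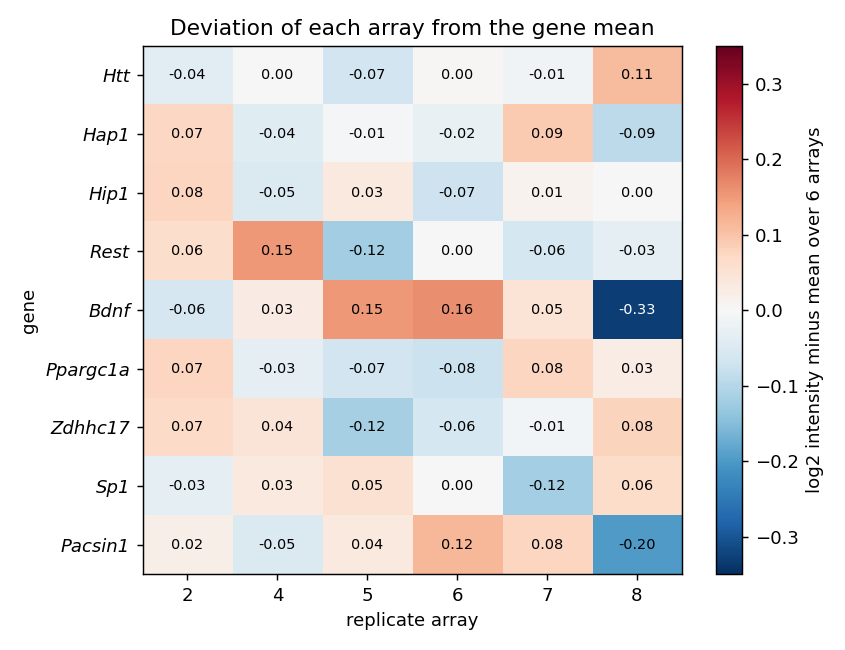
Deviation of each array (x axis) from the mean of the gene over the 6 arrays (log2 intensity, colour and printed value) for the 9 genes (y axis). The widest deviations are those of Bdnf and Pacsin1 in replicate 8, at -0.33 and -0.20.

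Over the 8 genes above background, replicate 8 was the highest array for Htt, Zdhhc17 and Sp1 and the lowest for Hap1 and Bdnf. That makes 5 of 8 genes, against 54.0% of all genes above background, where it was the lowest for 26.4% and the highest for 27.5%. Replicate 5 was extreme for 3 of 8 (Htt, Rest and Zdhhc17), against 40.0%, and replicate 2 for 1 of 8 (Hip1), against 21.8%. No array of the 9 genes lay beyond the critical value of Dixon's ratio for 6 values, where 6.97% of genes above background had such an array. Htt came closest, with a ratio of 0.60 for replicate 8.

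The next question was whether these genes varied more than others of like level. The genes above background were split into 20 bins by mean level, and the SD of each gene was placed within its bin. Bdnf was at the 86.1st percentile and Rest at the 60.5th, while Zdhhc17 and Sp1 were at the 56.4th and the 55.0th. Hap1, Ppargc1a, Htt and Hip1 were at the 46.6th, 44.2nd, 40.5th and 37.9th. So 4 of 8 genes had an SD above the median of their bin, against 50.0% of genes above background. The use of bin medians fixes that share in advance. The median SD was 0.069 over the 8 genes and 0.076 over all genes above background. Without replicate 8, 6 of the 8 were above the median of their bin. Quantile normalization gave the same count of 6.

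**Figure D3:**
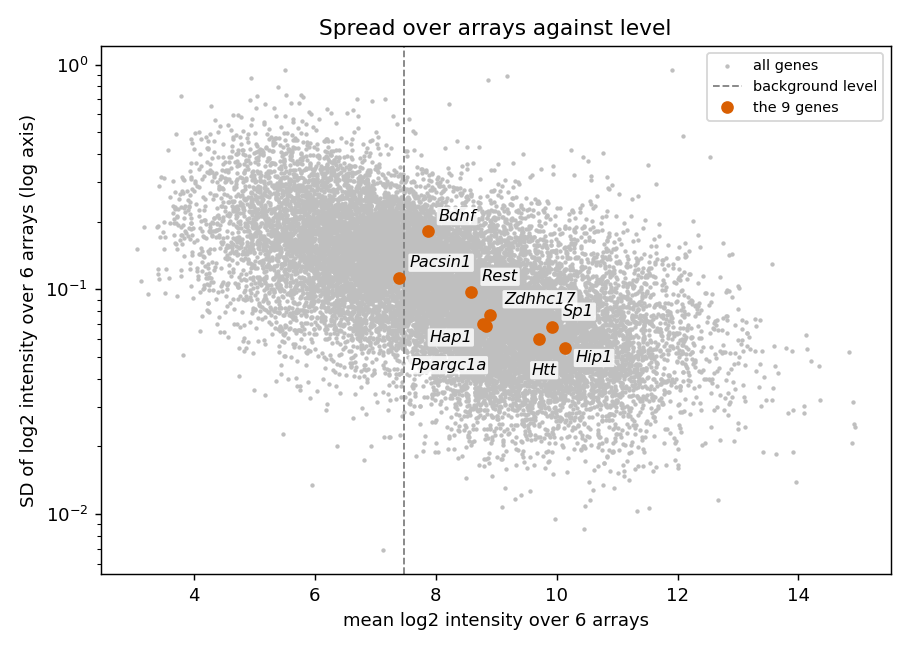
SD of log2 intensity over the 6 arrays (y axis, log scale) against mean log2 intensity (x axis) for all genes in grey and the 9 genes in orange, with the background level as a dashed line. Bdnf lies above most genes of its level with an SD of 0.18, and the other genes lie within the cloud.

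Whether the 9 genes moved together over the arrays was examined in all 36 pairs. Each had a Pearson's r and a Spearman's rho, both tested by exact permutation of the arrays on both sides. Of these, 3 pairs had an unadjusted p under 0.05 for r and 0 passed after Benjamini-Hochberg adjustment, with a lowest adjusted p of 0.533. Leaving out replicate 8 gave 0 pairs with an unadjusted p under 0.05, and leaving out replicate 2, 4 or 7 gave 1 each. Of the relations of the 9 genes with every gene above background, 9.36% had an unadjusted p under 0.05. With 6 arrays the smallest adjusted p that 1 pair alone can reach is 0.05 for r and higher for rho. The design could therefore not take a single pair below the threshold.

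Of the pairs linked in the known pathway, 4 are given first. For Rest with Bdnf, r was -0.11 (exact permutation p 0.829, adjusted 0.941) and rho was -0.31 (exact permutation p 0.564, adjusted 0.812), and r was 0.097 once the 2 arrays most distant from the Rest median were left out. Without replicate 5, r turned to 0.20. For Htt with Sp1, r was 0.29 (exact permutation p 0.547, adjusted 0.938) and rho was 0.31 (exact permutation p 0.564, adjusted 0.812), and r turned to -0.29 without replicate 8. For Htt with Hap1, r was -0.65 (exact permutation p 0.158, adjusted 0.565) and rho was -0.71 (exact permutation p 0.136, adjusted 0.80), and r was -0.21 without replicate 8. For Htt with Bdnf, r was -0.80 (exact permutation p 0.0875, adjusted 0.565) and rho was -0.26 (exact permutation p 0.658, adjusted 0.817). That r rested on replicate 8, as it was -0.045 without it, and it was 0.82 once the 2 arrays most distant from the Htt median were left out. None of these 4 pairs passed the adjusted test. With the remaining genes, Htt had an r of 0.11 for Rest, -0.36 for Hip1, 0.59 for Zdhhc17, -0.75 for Pacsin1 and 0.16 for Ppargc1a. None of those pairs passed either.

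The 3 pairs with a small unadjusted p joined genes of different roles. For Hap1 with Sp1, r was -0.87 (exact permutation p 0.0181, adjusted 0.533), rho was -0.83 (exact permutation p 0.0583, adjusted 0.70), and r was -0.44 once the 2 arrays most distant from the Hap1 median were left out. For Bdnf with Zdhhc17, r was -0.80 (exact permutation p 0.0444, adjusted 0.533), rho was -0.94 (exact permutation p 0.0167, adjusted 0.60), and r was -0.95 once the 2 arrays most distant from the Bdnf median were left out. For Bdnf with Pacsin1, r was 0.89 (exact permutation p 0.0319, adjusted 0.533) and rho was 0.89 (exact permutation p 0.0333, adjusted 0.60). The relation of Bdnf with Pacsin1 rested on replicate 8, as r was 0.52 without it and 0.20 once the 2 arrays most distant from the Bdnf median were left out. After quantile normalization that r was 0.43.

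**Figure D4:**
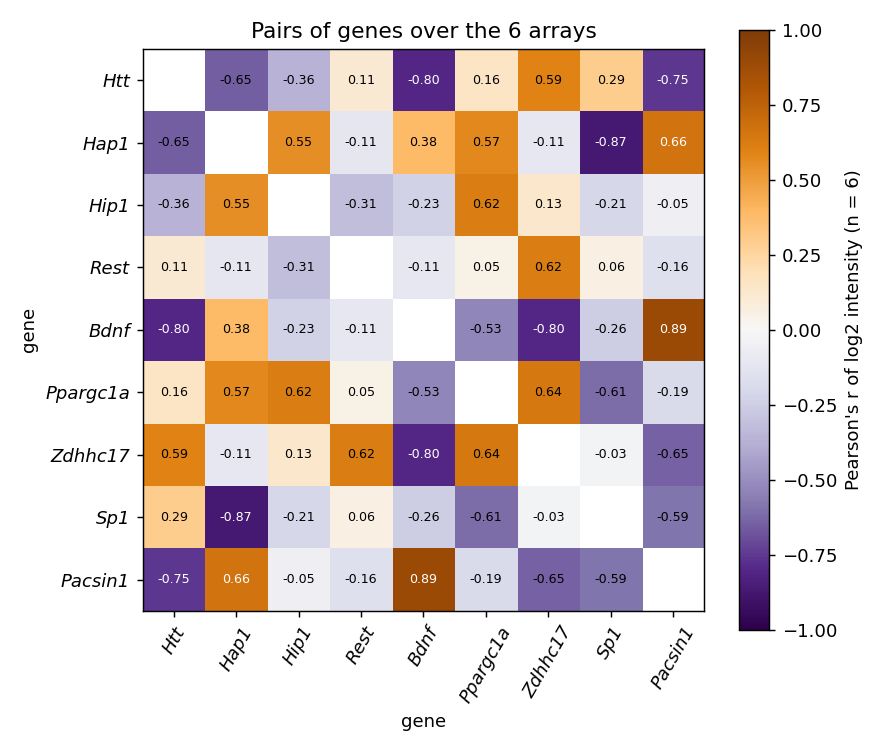
Pearson's r of log2 intensity over the 6 arrays (colour and printed value) for each pair of the 9 genes (both axes). The extremes are Hap1 with Sp1 at -0.87 and Bdnf with Pacsin1 at 0.89, and 0 of 36 pairs passed the adjusted test.

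The study corrected for batches of neurons with Olig2, Mnx1, Isl1 and Lhx3, so the 9 genes were also set against the mean of these 4 genes, which was 9.11 ± 0.075 (log2 intensity, SD, n = 6). After adjustment 0 of 9 passed, and 0 had an unadjusted p under 0.05 for r, a count of 1 without replicate 5, without replicate 7 and after either rescaling of the arrays. Over all 6 arrays Sp1 had the r farthest from 0, at 0.77 (exact permutation p 0.0597, adjusted 0.531) with a rho of 0.89 (exact permutation p 0.0333, adjusted 0.30). Leaving out the 2 arrays most distant in the 4-gene mean gave an r of 0.69 for Sp1, of -0.93 for Ppargc1a and of -0.81 for Hap1, which had been -0.60 for both. For Htt, Hip1 and Bdnf, r lay between -0.032 and 0.066 with all 6 arrays, and was 0.59, -0.74 and 0.73 without the same 2.

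Genes whose pattern over the 6 arrays was most like that of Htt, Rest and Bdnf were ranked by Pearson's r among 12792 genes above background. For Htt the highest were Ubxn2a at 0.994, 2610507B11Rik at 0.993 and Wdfy3 at 0.989, and the lowest were Wdr25 at -0.998, Dnaic2 at -0.997 and Tnfrsf18 at -0.996. For Rest the highest were Armcx4 at 0.994, Xylt1 at 0.993 and Plekhm3 at 0.989, and the lowest were S100a1 at -0.999, Mrps24 at -0.987 and Nov at -0.986. For Bdnf the highest were Il10rb and Rnf186 at 0.996 each and Oit3 at 0.994, and the lowest were Wdr19 at -0.998, Tbc1d4 at -0.996 and Sacm1l at -0.995. Values this near 1 are the extremes of many genes over few points. An r above 0.9 was found for 274 genes with Htt (2.14%), 130 with Rest (1.02%) and 791 with Bdnf (6.18%). An r below -0.9 was found for 290, 49 and 392. Bdnf was lowest in replicate 8, as were 53.8% of the genes in its bin of like level.

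Close relatives of the 9 genes were then read from a list. Of the HIP1 and PACSIN relatives, Hip1r had a log2 intensity of 8.20 ± 0.10, Pacsin2 9.97 ± 0.057 and Pacsin3 7.85 ± 0.13 (SD, n = 6). The 2 relatives of Pacsin1 were above background where Pacsin1 was not, but Pacsin3 and Hip1r lay below the stricter background of 8.33. Without replicate 8 the SDs of Hip1r and Pacsin3 were 0.041 and 0.076. Zdhhc13, the nearest relative of Zdhhc17, had 9.51 ± 0.049, and Ahi1, a binding partner of HAP1, had 9.45 ± 0.060 (SD, n = 6). The SP family members Sp2, Sp3 and Sp4 had 8.85 ± 0.064, 10.33 ± 0.030 and 10.12 ± 0.054, and the PGC-1 relatives Ppargc1b and Pprc1 had 9.48 ± 0.074 and 8.38 ± 0.066 (SD, n = 6). The SD was 0.040 for Sp2 without replicate 8, 0.018 for Sp3 without replicate 4 and 0.027 for Sp4 without replicate 7. The neurotrophin gene Ntf5 was below background, at 7.32 ± 0.14 (SD, n = 6).

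Ntf3, a further neurotrophin, was above background, with log2 intensities of 9.34, 8.97, 8.63, 8.89, 8.70 and 8.90 in replicates 2, 4, 5, 6, 7 and 8. Replicate 2 was 1.64-fold above replicate 5, and the SD of 0.25 was at the 99.4th percentile of genes of like level. Without replicate 2 the SD of Ntf3 was 0.15. Ntf3 thus differed from Bdnf in which array was extreme, as Bdnf was lowest in replicate 8.

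Of the genes that act with REST, all 13 corepressors and regulators of its stability were above background, against 65.2% of all genes. An SD above the median of like level was found in 3 of 13, against 50.0% of genes above background. Ctdsp1, a phosphatase that stabilizes REST, had the widest SD at 9.82 ± 0.11, and Kdm1a, a histone demethylase of the corepressor complex, had 10.44 ± 0.079 (SD, n = 6). Without replicate 5 these SDs were 0.065 and 0.047. Hdac1 and Ehmt2, a histone deacetylase and a histone methyltransferase, had the smallest, at 11.08 ± 0.024 and 9.74 ± 0.030 (SD, n = 6).

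Of 16 neuronal genes known to hold RE1 elements 15 were above background, against 65.2% of all genes. These 15 had a median SD of 0.097, against 0.076 over all genes above background. An SD above the median of like level was found in 14 of the 15, against 50.0% of genes above background. Without replicate 4 or replicate 8 the count was 12. Chrm4, a muscarinic receptor, was widest at 7.76 ± 0.34 and was highest in replicate 4, followed by Chga, a granin of secretory vesicles, at 10.21 ± 0.17 (SD, n = 6). In replicate 8 Chrm4 was below background, at 7.22. Grin1, an NMDA receptor subunit at 7.75 ± 0.053, was the exception, and Celsr3 had 9.98 ± 0.071 (SD, n = 6). Calb1 was below background. The motor neuron markers had an SD above the median of like level in 6 of 6 genes and the pan-neuronal markers in 4 of 7. Among all genes above background that share was 50.0%. Of the pan-neuronal markers, Tubb3 and Snap25 are also RE1 genes. Without replicate 8 the pan-neuronal count was 2 of 7.

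The level of Rest was related to each of these 15 genes over the 6 arrays, a set of relations chosen after their values were seen. Pearson's r was below 0 for 12 of the 15, against 50.6% of all genes above background, and ranged from -0.76 for Syn1 to 0.46 for Chrm4, with a median of -0.20. By the exact permutation test 0 of 15 had an unadjusted p under 0.05, against 4.45% of all genes above background. The lowest adjusted p was 0.881. For Syn1, which encodes a synaptic vesicle protein, r was -0.76 (exact permutation p 0.0792, adjusted 0.881), rho was -0.71 (exact permutation p 0.136, adjusted 0.846) and r was -0.37 once the 2 arrays most distant from the Rest median were left out. Replicate 4, the highest array for Rest, decided much of this, as 7 of 15 were below 0 without it.

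Of the genes that control, sort and receive BDNF, 12 of 13 were above background, against 65.2% of all genes. In 7 of these 12 the SD was above the median of like level, against 50.0% of genes above background. Ntrk2, the receptor of BDNF, had 9.48 ± 0.14 with the highest value in replicate 8, and Ngfr, the shared neurotrophin receptor, had 10.95 ± 0.059 (SD, n = 6). Without replicate 7 the SD of Ntrk2 was 0.095, and without replicate 8 that of Mef2c was 0.061. Mef2c had 7.49 ± 0.13 (SD, n = 6). Creb1, an activator of Bdnf, and Plat, the protease that activates plasminogen, were among the smallest in SD. They had 10.76 ± 0.021 and 9.93 ± 0.024 (SD, n = 6). Npas4, an activity-dependent activator of Bdnf, was below background at 7.35 ± 0.061 (SD, n = 6).

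All 19 other partners of huntingtin were above background, against 65.2% of all genes. In 6 of 19 the SD was above the median of like level, against 50.0% of genes above background. Without replicate 8 the count was 4. Dnm1 and Sqstm1 had the widest SDs, at 9.67 ± 0.077 and 11.11 ± 0.076, and Crebbp and Optn the smallest, at 11.20 ± 0.019 and 8.37 ± 0.024 (SD, n = 6). Without replicate 8 the SD of Sqstm1 was 0.033. Among the polyglutamine disease genes above background, which include Htt, 2 of 8 had an SD above the median of like level. The share was 50.0% of all genes above background. The count was 1 of 8 without replicate 8 and after quantile normalization. Atxn3 and Atxn7 had 8.71 ± 0.090 and 9.15 ± 0.078, and Atxn2 and Atn1 had 11.46 ± 0.022 and 10.72 ± 0.035 (SD, n = 6).

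**Figure D5:**
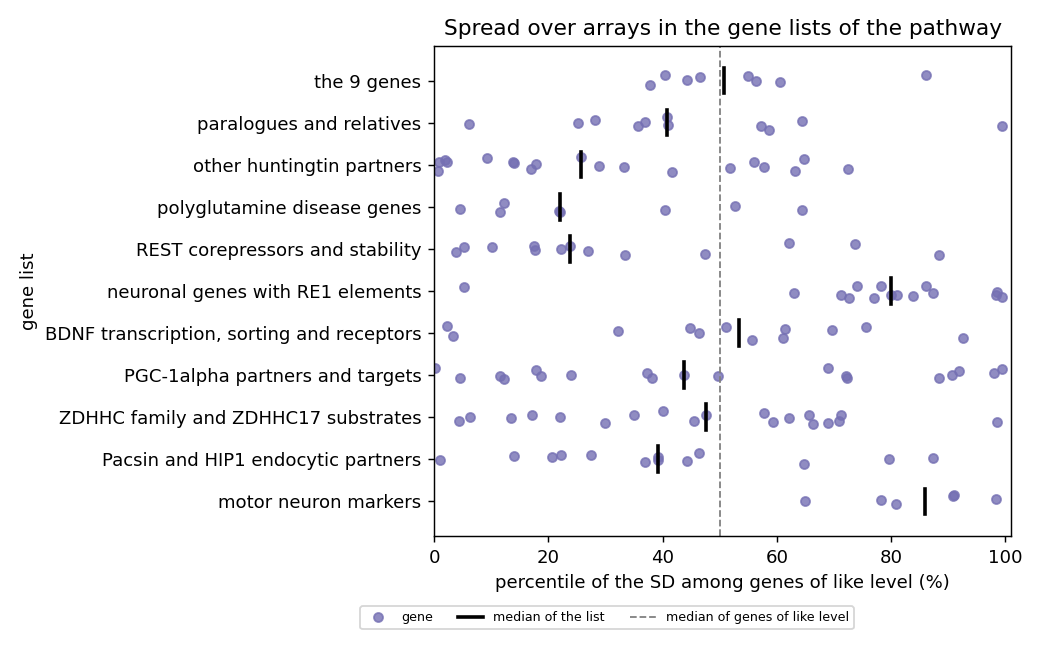
Percentile of the SD of each gene among genes of like level (x axis, %) for the 9 genes and 10 related lists (y axis), with 1 point per gene above background, a black bar at the median of the list and a dashed line at 50. Genes with RE1 elements and motor neuron markers lie mostly to the right of the line, and corepressors of REST mostly to the left.

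For PGC-1alpha, 19 of 20 partners and targets were above background, against 65.2% of all genes. In 8 of 19 the SD was above the median of like level, against 50.0% of genes above background. With arrays left out the count ranged from 7 (without replicate 4) to 11 (without replicate 8). Cycs, the gene of cytochrome c, and Ucp2, a mitochondrial carrier, had the widest SDs at 11.65 ± 0.29 and 9.97 ± 0.19, while Taf4a and Atp5b had 9.62 ± 0.017 and 13.38 ± 0.030 (SD, n = 6). Without replicate 8 the SD of Ucp2 was 0.13. The nuclear receptor Pparg was below background at 6.72 ± 0.17 (SD, n = 6). Of the 20 matched genes of the ZDHHC family and the substrates of ZDHHC17, 19 were above background, against 65.2% of all genes. In 9 of these 19 the SD was above the median of like level, against 50.0% of genes above background. With arrays left out the count ranged from 8 (without replicate 2) to 11 (without replicate 8). Snap25, a substrate that also holds an RE1 element, was widest at 11.70 ± 0.17, followed by Zdhhc18 at 9.26 ± 0.091, with the smallest SDs in Zdhhc4 and Zdhhc14 at 10.23 ± 0.039 and 8.43 ± 0.040 (SD, n = 6). Without replicate 6 the SD of Zdhhc18 was 0.048. Zdhhc23 was below background at 7.41 ± 0.074 (SD, n = 6).

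The endocytic genes that act with HIP1 and PACSIN1 were above background in 13 of 13, against 65.2% of all genes. In 3 of 13 the SD was above the median of like level, against 50.0% of genes above background. Median centring of the arrays gave 6, and leaving out replicate 4 or replicate 7 gave 5. Dnm3 and Ap2a2 had the widest SDs, at 9.23 ± 0.11 and 11.01 ± 0.10, and Itsn1 and Cltc the smallest, at 10.89 ± 0.016 and 11.52 ± 0.032 (SD, n = 6). Without replicate 8 the SD of Dnm3 was 0.066.

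Markers of cell types were read to see which cells could give these values. Of all genes 65.2% were above background, and the counts of glial and non-neural markers below lie near that share. Motor neuron markers were above background in 6 of 6 matched genes, with a mean between 9.11 (replicate 4) and 9.34 (replicate 8). Pan-neuronal markers were above background in 7 of 7, with a mean from 11.76 in replicate 4 to 11.92 in replicate 8, and progenitor markers in 3 of 4, with a mean from 8.92 to 9.08. Glial markers were above background in 4 of 6 matched genes, with a mean from 7.56 in replicate 8 to 7.75 in replicate 7. Non-neural markers were above it in 5 of 8, with a mean from 7.92 in replicate 8 to 8.19 in replicate 5, pluripotency markers in 1 of 5 (Nanog), with a mean from 7.52 to 7.68, and blood markers in 1 of 4 matched genes (Cd68), with a mean from 6.91 to 7.12. Replicate 8 thus had the highest mean for neuronal and motor neuron markers and the lowest for glial, non-neural, pluripotency and blood markers, the array in which Bdnf was lowest and Htt highest. The part of cell content in those values was not tested.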

How the data were processed

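Gene expression was measured in 6 embryoid body samples of 1 group, taken from the labels of the samples. The table deposited holds 1 linear intensity for each gene on each array. The authors describe making such values by Robust Multi-array Averaging in Aroma Affymetrix and averaged all exons of a gene. Their correction for neuron batches gives log2 ratios, whereas these values are linear, so they were read as uncorrected. Which arrays were normalized together, and the genome build, are not given in the sources used here. Averaging over exons hides transcripts from separate promoters, and normalization with other arrays can shift low values.

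Names altered at a leading digit or hyphen were restored (1193 of 19613). The table held 0 columns of other samples. Intensities were taken as log2 with no pseudocount in Python 3.11.15 with numpy 2.4.6 and pandas 2.3.3. The SD over arrays is the replicate error and can include differences between sera and batches. The number of arrays limits precision, since arrays give no depth. The p-values are only those of r and rho over these samples, whose differences may be technical. Related lists of genes were named by rule (relatives in full, the 2 widest and 2 steadiest SDs of other lists, genes below background), the 3 genes with the highest and the 3 with the lowest r for Htt, Rest and Bdnf likewise, and Ngfr, Syn1, Nanog and Cd68 after their values were seen. Some members of the lists are not reported here. List members not matched by symbol or RefSeq synonym were Syt1, Slc18a3, Slc1a3 and Hba-a1. The 9 genes and the lists were chosen with earlier results of these data known. Correlation and SD steps were tested on simulated data. Alternatives were median centring, quantile normalization, a higher background, no filter, the linear scale and leaving out each array.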

Additional observations from a re-analysis of the deposited data

How the results depend on the processing

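No paired analysis was possible because the 6 arrays form a single group. The means of the 9 genes moved by less than 1 SD in 81 of 81 alternative values. Of 81 SDs, 76 stayed within 1.5 times the value given, and the other 5 were those of Htt, Bdnf and Pacsin1 without replicate 8 (0.030, 0.092 and 0.062), of Sp1 without replicate 7 (0.040) and of Pacsin1 after quantile normalization (0.039). The count of genes above background was 8 throughout, except 7 with the stricter background. The count with an SD above the median of like level ranged from 4 to 6 over the arrays left out and was 3 of 7 with the stricter background. The adjusted tests called 0 pairs and 0 relations to the motor neuron genes in every alternative. But with 5 arrays 1 pair alone can reach no adjusted p below 0.30, and 1 relation to the motor neuron genes none below 0.075. Leaving out an array therefore could not call a single pair or relation. The number of pairs with an unadjusted p under 0.05 ranged from 0 without replicate 8 to 4 without replicate 5. With arrays left out, r of Htt with Sp1 ranged from -0.29 (without replicate 8) to 0.66 (without replicate 5), and r of Rest with Bdnf from -0.57 (without replicate 8) to 0.20 (without replicate 5). Both thus changed sign, and the cause was not tested. For the lists, scaling and left-out arrays, and for their widest genes and the relatives left-out arrays, were added as alternatives after seeing the data, and the count of RE1 genes with a wide SD ranged from 12 to 14 of 15. Signal near background limits what can be read of Bdnf and Pacsin1. The same holds for list genes below the stricter background of 8.33, such as Hip1r, Pacsin3, Chrm4, Grin1 and Mef2c. The counts of the lists were taken with the background of 7.47 only.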
